A study of Homo sapiens with 2 samples.

Results

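The genes of the BCL2 family, the caspases and the inhibitor of apoptosis proteins (IAPs) were followed on 2 Affymetrix arrays in SW480, a long-established line grown from a human colorectal adenocarcinoma. The array labelled TFAP2E overexpression held biotin-labelled total RNA from stable transfectants that carry the TFAP2E coding sequence in the pTarget mammalian expression vector, and the array labelled empty vector control held RNA from cells with the vector alone. Both kinds of cell had been kept for weeks in Geneticin, the drug that the vector's resistance gene counters, and single clones had been picked and checked for TFAP2E. The labels do not say how many clones stand behind each array. TFAP2E encodes AP-2 epsilon, a DNA-binding transcription factor of the AP-2 family. The comparison asks how these death and survival genes read when that factor is introduced. With 1 array in each group, a difference that follows the factor and one between clones cannot be told apart.

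In mitochondrial apoptosis, the anti-death proteins of the BCL2 family hold back the effectors BAX and BAK1, and the BH3-only proteins release this hold. Freed effectors open the mitochondrial outer membrane, cytochrome c escapes and assembles APAF1 into the apoptosome, which activates caspase-9. A separate route starts at death receptors and activates caspase-8 through the adaptor FADD, while IAPs restrain caspases and death signalling further down. SW480 cells carry mutated p53, the factor best known for inducing the BH3-only genes BBC3 and PMAIP1.

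The set was defined by name as 34 genes, and 31 of them had at least 1 probe set carrying that symbol alone, out of 18417 genes named on the array. BCL2L2 shared its probe set with the read-through transcript BCL2L2-PABPN1, and RIPK1 and BIRC3 were not analysed here. Values are log2 RMA values, and every difference is TFAP2E overexpression minus empty vector on the log2 scale. A gene is called measured when its higher value reached 5.55, the median of all probe sets, and dim otherwise. Of the 31 genes 28 were measured, and BCL2, BCL2A1 and CASP10 were dim. CFLAR was measured only through the empty vector array, at 5.50 with TFAP2E against 5.62 with empty vector. Each group has 1 array, so no value has a replicate, an error or a test, and fixed folds of 2 and 1.5 serve as rules of size. In RNA from whole cultures, a lower value from fewer cells using a gene and one from less RNA per cell cannot be told apart.

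On the TFAP2E-labelled array the probe set of TFAP2E itself was at 6.81, against 6.77 with the empty vector, so the introduced gene was not visible in these values and the directions below rest on the labels. The sources used here do not give the part of the transcript that it covers. Of 10 markers of colorectal epithelium 7 were measured, among them EPCAM (11.1 with TFAP2E against 11.2 with empty vector) and KRT8 (12.1 with TFAP2E against 12.3 with empty vector), while KRT20, CDH17 and CEACAM5 were dim. Within this list, VIL1 (villin) read 6.22 with TFAP2E against 4.94 with empty vector (1.28), passing the filter only on the TFAP2E-labelled array, and CDH1 (E-cadherin) read 6.38 with TFAP2E against 7.08 with empty vector (-0.71). All 4 endothelial markers, 3 of 5 fibroblast markers and 3 of the 4 leukocyte markers analysed were dim. The exceptions were COL1A1 (6.45 with TFAP2E against 6.40 with empty vector), COL1A2 (5.47 with TFAP2E against 5.56 with empty vector) and CD68 (6.60 with TFAP2E against 6.02 with empty vector).

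The machinery of apoptosis read nearly alike on both arrays. None of the 28 measured members differed by 2-fold, where 0.199% of the 11548 measured genes did, and none by 1.5-fold, where 1.5% did. A count of 0 in 28 is near these background shares. The differences ran from -0.35 for CASP9 to 0.34 for DIABLO, with a median of 0.03 beside 0.04 for all measured genes. Their median size without regard to sign was 0.096, against 0.128 for all measured genes. The band from -0.08 to 0.17, which holds 50% of all measured genes, held 20 of the 28 (71.4%), and the band from -0.37 to 0.47, which holds 95%, held all 28. Above 0 lay 16 of the 28 (57.1%), beside 59.2% of all measured genes, and below 0 lay 10, where 39.5% of all measured genes did.

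**Figure D1:**
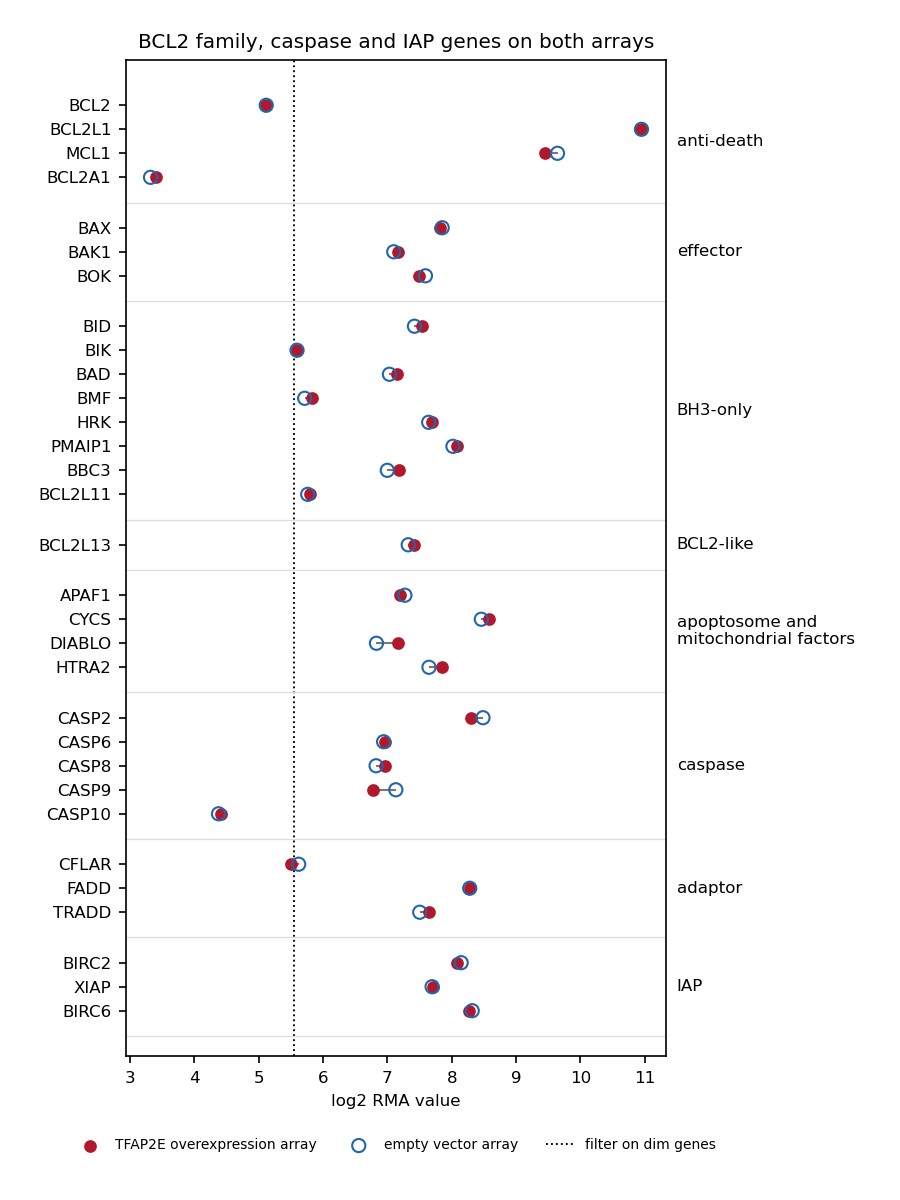
Log2 RMA values (x axis) of the 31 genes analysed, grouped by role, on the TFAP2E-labelled array (filled red) and the empty vector array (open blue), with the filter value of 5.55 as a dotted line. The paired points nearly coincide for most genes, and the widest gaps are those of CASP9 (6.78 with TFAP2E, 7.13 with empty vector) and DIABLO (7.17 with TFAP2E, 6.83 with empty vector); levels of different probe sets cannot be set against each other.

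Because AP-2 proteins bind GC-rich DNA, the 250 bases before the start of each gene in the RefSeq promoter table (GRCh38.p14) were searched for the AP-2 consensus GCCNNNGGC, which reads the same on both strands. The table held 29 of the 34 genes, all but BCL2L2, MCL1, BIK, CASP10 and TRADD. The consensus occurred in 7 of the 29 (24.1%), beside 24.2% of 15842 protein-coding genes and 19.7% of all 27305 entries. The 7 were BCL2, BID, BCL2L11, HTRA2, CASP6, RIPK1 and BIRC6. The matches of the 5 measured genes among them are given below with up to 10 bases on either side, 5′ to 3′ on the gene's strand, with the consensus in capitals, to show the letters that surround each match.
BID, chr22:17774526-17774554, - strand: cccgcaagccGCCGGGGGCgggccggggc
BCL2L11, chr2:111120763-111120791, + strand: gcctgcacgcGCCGGCGGCcgcggcgccg
HTRA2, chr2:74529302-74529330, + strand: tgactgtgtgGCCTCGGGCcagacccagc
CASP6, chr4:109703456-109703484, - strand: ccgaggaaggGCCGAGGGCggggccgggc
BIRC6, chr2:32356999-32357022, + strand: tccagcccgcGCCCCGGGCcccgc
These 5 genes differed by -0.05 to 0.21 between the arrays, with a median of 0.03, and the 20 measured genes without a match by -0.35 to 0.34, also with a median of 0.03. The promoters of these 5 genes had a median GC content of 74.0%, against 64.8% for those 20. The members with the highest and the lowest difference, DIABLO and CASP9, had no match in this window, and their 250 bases are shown in full for that reason, with no capitals.
DIABLO, chr12:122226569-122226818, - strand: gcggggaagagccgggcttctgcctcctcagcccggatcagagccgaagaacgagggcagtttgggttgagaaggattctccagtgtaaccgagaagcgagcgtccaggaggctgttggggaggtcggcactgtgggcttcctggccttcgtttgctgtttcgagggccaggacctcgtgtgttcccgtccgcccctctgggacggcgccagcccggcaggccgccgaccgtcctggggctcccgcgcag
CASP9, chr1:15524216-15524465, - strand: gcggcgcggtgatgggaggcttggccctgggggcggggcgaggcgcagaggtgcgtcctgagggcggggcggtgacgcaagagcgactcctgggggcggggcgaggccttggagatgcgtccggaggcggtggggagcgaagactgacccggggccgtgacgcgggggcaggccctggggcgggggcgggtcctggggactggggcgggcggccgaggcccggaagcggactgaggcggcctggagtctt
A match in these letters is a description and not a binding site. The lack of one says nothing about AP-2 outside this window, or at other sequences within it, which were not searched for.

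Among the anti-death genes, BCL2L1 and MCL1 were measured. BCL2L1, which encodes BCL-XL, read 10.94 on the TFAP2E-labelled array, against 10.95 on the empty vector array (-0.01). MCL1, a short-lived protein that cells lose quickly when its synthesis stops, read 9.45 with TFAP2E against 9.64 with empty vector (-0.19, 1.14-fold lower), and 10.5% of all measured genes had a difference as low or lower. BCL2 itself was dim and listed at 5.12 on both arrays. BCL2A1, a target of NF-kB in blood cells, was dim at 3.41 with TFAP2E against 3.32 with empty vector. The probe set shared by BCL2L2 and its read-through transcript read 6.67 with TFAP2E against 6.70 with empty vector (-0.04). Thus none of these probe sets differed by more than 0.2, and that of BCL2L1 changed sign under median centring (0.01).

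The effectors were all measured and differed little. BAX read 7.82 with TFAP2E against 7.85 with empty vector (-0.04), and BAK1, which sits in the outer mitochondrial membrane, 7.17 with TFAP2E against 7.10 with empty vector (0.07). BOK, a relative that can act without release by BH3-only proteins, read 7.49 with TFAP2E against 7.59 with empty vector (-0.10). BAX and BAK1 both lay within the middle 50% of all genes, and BOK lay below it. BCL2L13, a BCL2-like protein of the mitochondrial surface also known as a mitophagy receptor, read 7.41 with TFAP2E against 7.32 with empty vector (0.09).

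The 8 BH3-only genes formed the group with the least scatter among those of more than 3 measured genes, between 0.00 and 0.19, with a median of 0.09 beside 0.04 for all measured genes. The 3 measured IAP genes, outside that comparison, scattered less, with a standard deviation of 0.04 against 0.06 for the BH3-only genes. BBC3, which encodes PUMA, read 7.18 on the TFAP2E-labelled array, against 7.00 on the empty vector array (0.19, 1.14-fold higher), a difference at percentile 77.7 of all measured genes. PMAIP1, which encodes NOXA, a partner of MCL1, read 8.09 with TFAP2E against 8.02 with empty vector (0.07). Of these 2 classic p53 targets, PMAIP1 lay within the middle 50% of all genes, and BBC3 lay above it but inside the middle 95%. BID, which caspase-8 cleaves to link the death receptor route to mitochondria, read 7.54 with TFAP2E against 7.42 with empty vector (0.12), and BAD, which growth factor kinases inactivate, 7.15 with TFAP2E against 7.03 with empty vector (0.12). BMF, a BH3-only protein tied to the cytoskeleton, read 5.82 with TFAP2E against 5.72 with empty vector (0.11). HRK read 7.69 with TFAP2E against 7.64 with empty vector (0.05), and BCL2L11, which encodes BIM, 5.80 with TFAP2E against 5.76 with empty vector (0.03). BIK had the same value, 5.60, on both arrays. Thus 7 of the 8 lay above 0, beside 59.2% of all measured genes, and 6 lay above the median of all genes. Under median centring, quantile normalization and removal of a loess trend 7 or 8 lay above 0, beside 52.1% to 65.4% of all genes. Above the median of all genes under that scaling lay 6 or 7. With the filter set at the 75th percentile only 3 of the 8 were measured, all 3 above 0, beside 63.2% of all measured genes.

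MCL1 had the lowest difference of the 14 measured BCL2 family genes. The ratio of each of the others to it was therefore bound to be higher in the TFAP2E-labelled array. For the BH3-only genes this ratio ran from 1.14-fold for BIK to 1.30-fold for BBC3. The same held for the effectors, at 1.12-fold for BAX, 1.20-fold for BAK1 and 1.06-fold for BOK, and 89.5% of all measured genes had a higher difference than MCL1. The ratios of the BH3-only genes to BCL2L1 ran lower, from 1.01-fold for BIK to 1.15-fold for BBC3. Such ratios show that the genes differed unequally and not which of them changed, and with no replicate their error is unknown.

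**Figure D2:**
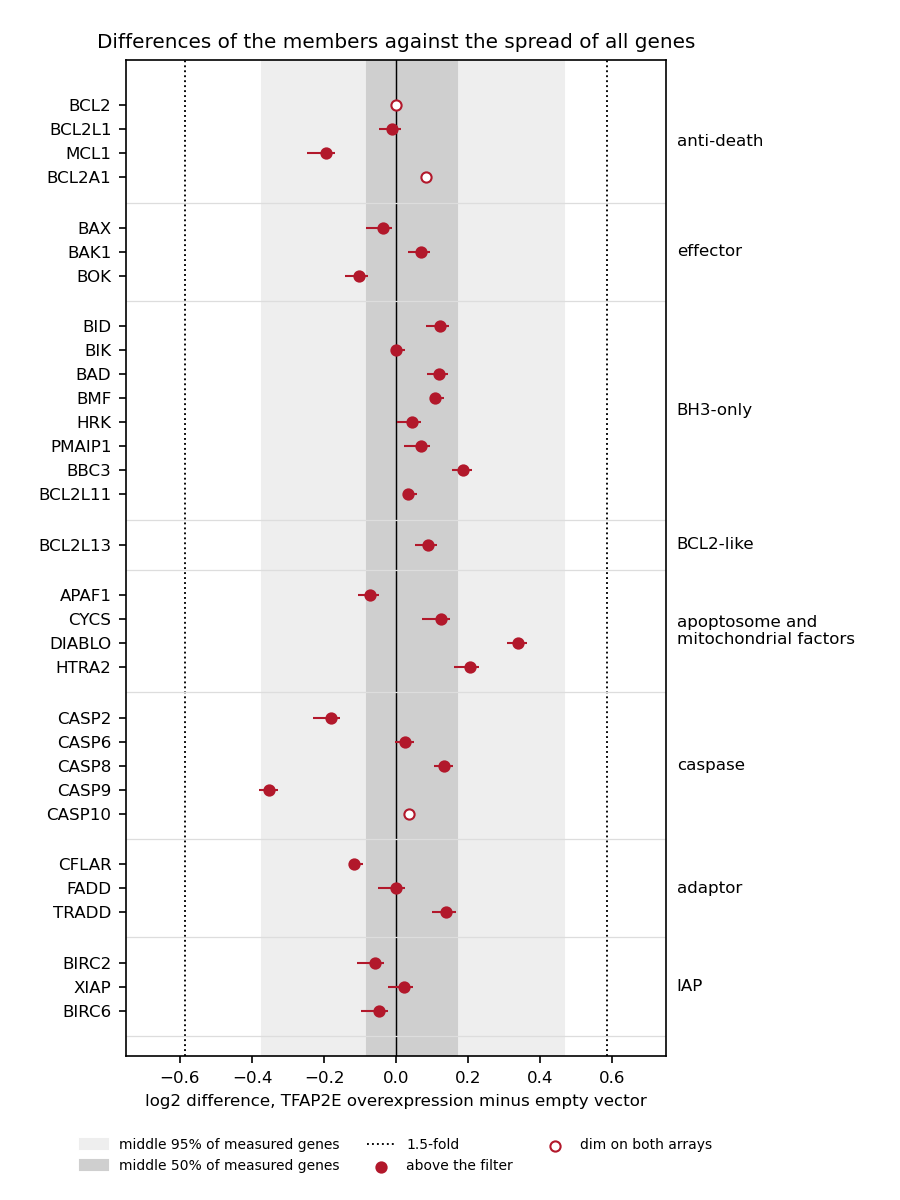
Log2 difference (x axis, TFAP2E overexpression minus empty vector) of each gene analysed, grouped by role, as filled points where measured and open points where dim, with a red line for the range over the alternative processing settings. Grey bands hold the middle 50% and 95% of 11548 measured genes, and no member reaches the dotted lines at 1.5-fold.

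The factors that act once mitochondria open held the highest member of the set. DIABLO, which encodes SMAC, a protein that displaces IAPs from caspases, read 7.17 on the TFAP2E-labelled array, against 6.83 on the empty vector array. This difference of 0.34 (1.26-fold higher) lay at percentile 93.2 of all measured genes. DIABLO was picked as the highest of 28 measured members after the values were seen, so this percentile does not mark it as unusual. HTRA2, a mitochondrial serine protease that also binds IAPs, read 7.85 with TFAP2E against 7.65 with empty vector (0.21, percentile 80.4). CYCS, the gene of cytochrome c, read 8.58 with TFAP2E against 8.46 with empty vector (0.12), and APAF1, the scaffold of the apoptosome, 7.20 with TFAP2E against 7.27 with empty vector (-0.07). APAF1 and CYCS lay inside the middle 50% of all genes, and DIABLO and HTRA2 above it. Of the 4 genes 3 were above 0, beside 59.2% of all measured genes, with a median of 0.16.

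Caspases were spread most widely. CASP9, the initiator caspase of the apoptosome, read 6.78 on the TFAP2E-labelled array, against 7.13 on the empty vector array (-0.35, 1.28-fold lower). Of all measured genes 3.03% had a difference as low or lower, and of 1720 named probe sets within 0.25 of its mean level 57 did (3.31%). CASP9 was picked as the lowest of 28 measured members after the values were seen, so these shares do not mark it as unusual. CASP2, an initiator caspase activated through the PIDDosome, read 8.30 with TFAP2E against 8.49 with empty vector (-0.18). CASP8, the initiator at death receptors, read 6.96 with TFAP2E against 6.82 with empty vector (0.13), and CASP6, an executioner, 6.97 with TFAP2E against 6.94 with empty vector (0.03). CASP10, a close relative of CASP8, was dim at 4.41 with TFAP2E against 4.38 with empty vector. CASP6 and CASP8 lay inside the middle 50% of all genes, and CASP9 and CASP2 below it.

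In the death receptor complex, the adaptor FADD had one value, 8.28, on both arrays, and TRADD, an adaptor of TNF receptor 1, read 7.64 with TFAP2E against 7.50 with empty vector (0.14). CFLAR encodes c-FLIP, a caspase-8 relative that blocks caspase-8 activation, and was the only member with more than 1 probe set carrying its symbol alone. The brighter of them was at 5.50 in the TFAP2E-labelled array, against 5.62 on the empty vector array (-0.12). The other, dim on both arrays, read 4.38 with TFAP2E against 5.18 with empty vector, a difference of -0.80 or 1.75-fold lower. Of 1433 named probe sets within 0.25 of that mean level, 4 (0.279%), itself included, had a difference as low or lower, and the middle 95% of them ran from -0.47 to 0.41. The platform annotation pairs the 2 probe sets with different RefSeq transcripts of CFLAR. They agree in sign and not in size, and the larger difference comes from a probe set below the filter that was singled out after its value was seen. CASP8, CASP10 and CFLAR are neighbours on chromosome 2 and share most of their flanking genes, whose median difference was between -0.01 and 0.02.

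The 3 measured IAP genes had the smallest differences of any group, 0.05 in the median without regard to sign. XIAP, a direct inhibitor of caspases, read 7.72 with TFAP2E against 7.69 with empty vector (0.02). BIRC2, which encodes cIAP1, a ubiquitin ligase of the TNF receptor complex, read 8.09 with TFAP2E against 8.15 with empty vector (-0.06), and the giant IAP BIRC6 read 8.27 with TFAP2E against 8.32 with empty vector (-0.05). All 3 lay within the middle 50% of all genes, although quantile normalization and removal of the loess trend brought XIAP below 0 as well.

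BCL2, BIK and FADD had exactly equal values on both arrays to the last deposited digit, 3 of the 31 genes analysed (9.68%). Of all 18417 genes 617 did (3.35%), as did 159 of the 11548 measured genes (1.38%). A difference of 0 in these genes is not read as a finer measurement than a small difference in others.

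Clones of a cell line can differ in the copy number of a chromosome region, so each measured member was set beside its nearest 20 measured genes on either side in RefSeq order (28 or 29 in all for BOK, BID and BCL2L13, which lie near the start or end of a chromosome, and 40 for the others). The neighbours' medians ran from -0.02 for CASP2 to 0.21 for CYCS. CYCS on chromosome 7 stood in the most shifted surroundings, with 35 of 40 neighbours above 0, beside 59.2% of all measured genes. Its own difference of 0.12 was lower than its neighbours' median of 0.21. BIRC6 on chromosome 2 came next, with 32 of 40 neighbours above 0 and a median of 0.13, against its own -0.05. DIABLO on chromosome 12 stood 0.32 above its neighbours' median of 0.02, and CASP9 on chromosome 1 deviated by -0.42 from its own neighbours' median of 0.07. These were the 2 members more than 0.25 from their neighbours, and MCL1 fell just short of that at -0.249. Of the 28 members, 12 lay above their neighbours' median and 16 below. The part of copy number in any of these differences was not tested.

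**Figure D3:**
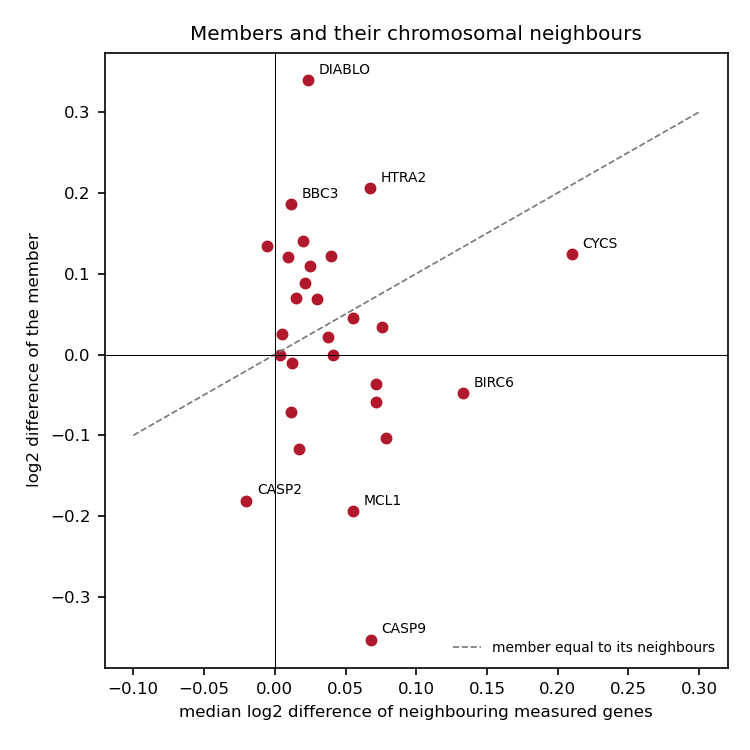
Log2 difference of each of the 28 measured members (y axis) against the median log2 difference of up to 40 neighbouring measured genes (x axis), both TFAP2E overexpression minus empty vector. CYCS (0.12 at a neighbour median of 0.21) and BIRC6 (-0.05 at 0.13) lie to the right, and DIABLO (0.34) and CASP9 (-0.35) lie farthest from the dashed line where member and neighbours are equal.

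Other genes of the same pathways were read from 8 further lists with 55 measured genes, and DDIT3 alone among them passed 1.5-fold, where 1.5% of all measured genes did. Of the transcription factors that act on BH3-only genes, DDIT3 (CHOP), a stress factor known to induce BBC3 and BCL2L11, read 7.89 on the TFAP2E-labelled array, against 7.07 on the empty vector array (0.82, 1.77-fold higher). TRIB3, a pseudokinase induced by CHOP, read 7.84 with TFAP2E against 7.36 with empty vector (0.48). E2F1 (-0.16) and FOXO1 (-0.07) were the lowest, and the 8 measured genes had a median of 0.01. BBC3 and BCL2L11 themselves differed by 0.19 and 0.03, as given above.

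Mitochondrial membrane genes read mostly higher in the TFAP2E-labelled array, 10 of 11 above 0 with a median of 0.18, beside 59.2% and 0.04 for all measured genes, and 9 of 11 under quantile normalization and without the loess trend. OPA1, which shapes the inner membrane, differed by 0.38 and OMA1, the protease that cuts it, by 0.29, while the fission GTPase DNM1L (-0.12) and the channel VDAC1 (0.01) were lowest. All 7 measured genes of the other BCL2-related list lay above 0 (6 under quantile normalization and without the loess trend), with a median of 0.18. They ran from BNIP1 at 0.23 and BECN1, an autophagy protein with a BH3 domain, at 0.20 to MOAP1 at 0.09 and BCL2L15 at 0.02. Neither list held a gene past 1.5-fold.

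The 12 genes of the execution phase were split evenly about 0, with a median of 0.01 that became -0.04 under quantile normalization and without the loess trend. PAK2, a kinase that caspases activate, differed by 0.24 and DFFA, the inhibitor of the caspase-activated DNase, by 0.22, against -0.28 for the actin-severing protein GSN and -0.27 for XKR8, a lipid scramblase that caspases switch on. Among other IAPs and IAP-binding genes, NAIP read 5.45 with TFAP2E against 5.79 with empty vector (-0.34), measured only through the empty vector array. BIRC5 (survivin), which also serves in mitosis, read 8.68 with TFAP2E against 8.88 with empty vector (-0.19), while BIRC7 differed by 0.11 and SEPTIN4 by 0.05. Values in this list depend on the probe set. Averaging the probe sets of each gene moved its lowest difference from -0.34 to -0.39 and its median from -0.07 to -0.14. CASP4, an inflammatory caspase, was the sole measured gene of the other caspases, at 6.35 with TFAP2E against 6.02 with empty vector (0.33), and CASP1, CASP5 and CASP14 were dim. Of the death complex adaptors, RBCK1 (0.31) and SHARPIN (0.19), subunits of the linear ubiquitin ligase, were highest, and MLKL (-0.13), the effector of necroptosis, and CYLD (-0.04) lowest. RIPK3, the kinase that activates MLKL, was dim at 5.28 with TFAP2E against 5.38 with empty vector. Of 5 genes that control MCL1 turnover 4 lay below 0, where 39.5% of all measured genes did. In each scaling tried 1 of the 5 lay above 0, beside 52.1% to 65.4% of all measured genes. The ubiquitin ligase subunit FBXW7 was at -0.30 and the deubiquitinase USP9X at -0.09, against 0.18 for MARCHF5 and -0.04 for HUWE1.

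**Figure D4:**
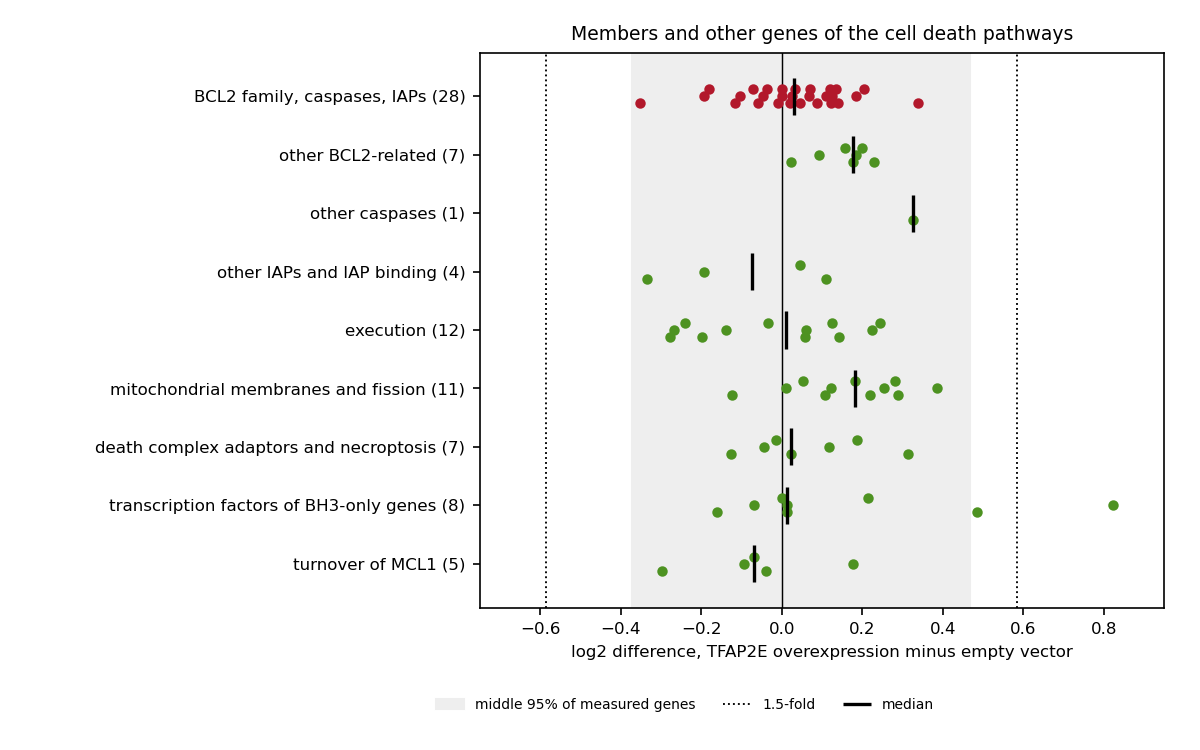
Log2 difference (x axis, TFAP2E overexpression minus empty vector) of each measured gene, in red for the 28 members and in green for 8 other lists of cell death genes, with the number measured in brackets and the median as a black bar. DDIT3 (0.82), in the list of transcription factors, is the sole point past the dotted line at 1.5-fold.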

How the data were processed

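The authors deposited log2 values, 1 per probe set and array, which they made with RMA, per the submitters' processing notes. The sources used here give no RMA version, software or genome build. RMA sets arrays to a common distribution before values are summarised per probe set, so a shift of all transcripts would not appear. The deposited values still differed slightly, with medians of 5.54 (TFAP2E-labelled) and 5.56 (empty vector). The platform annotation supplied gene names: of 33297 probe sets, 19460 had 1 symbol, 1754 several and 12083 none. Older symbols were replaced by Entrez identifier from a RefSeq table (GRCh38.p14), which held 19429 of the 19460. A gene with several probe sets was represented by the one brightest on average. Array values ran from 1.42 to 13.1 (TFAP2E-labelled) and from 1.34 to 13.3 (empty vector). Scanner files were not used here, and the number of arrays limits the precision.

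The members, the gene lists and the alternatives were chosen with earlier results of these data known. All measured members are named with values. Of each other list of cell death genes, those past 1.5-fold and the 2 highest and 2 lowest are named, and other names were added after their values were seen. Alternatives were 3 scalings, 2 filters, averaging of probe sets, a floor and a 3-fold rule. Scripts (Python 3.11.15, pandas 2.3.3, statsmodels 0.14.6) were tested on simulated data.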

Additional observations from a re-analysis of the deposited data

How the results depend on the processing

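No member passed 2-fold or 1.5-fold, in either direction, under any of the 3 scalings, the 2 filters, the mean of probe sets or the floor at the 20th percentile, nor 3-fold with the original processing. The count of 0 holds for 1 probe set or 1 mean per gene. The second probe set of CFLAR, at -0.80, is past 1.5-fold when counted by itself, and averaging both left CFLAR dim and 27 members measured. The average of the 2 CFLAR probe sets, which differed by -0.12 and -0.80, was dim and is left out of the shifts given next. The 182 recomputed member differences moved by at most 0.055, where the differences of all genes had a standard deviation of 0.219. In 4 of them the sign turned, for BCL2L1, CASP6 and XIAP, all within 0.05 of 0. This count leaves out BIK and FADD, which were at 0 originally and ranged from -0.01 to 0.03 and from -0.05 to 0.03. Of 55 recomputed group medians 1 turned its sign, that of the caspases, which became 0.03 with no filter, where CASP10 entered, against -0.08. The adaptor median, at 0 originally, is not counted and took both signs, from -0.05 under quantile normalization to 0.07 with the mean of probe sets. The median of all measured genes, 0.04, became 0.07 after median centring, 0.02 after quantile normalization and 0.01 once the loess trend was removed, so signs near 0 carry little. With 1 array per group no leave-one-out was possible. No paired analysis was possible because there is 1 array in each group.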
